A study of Bos taurus with 36 samples.

Results

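Transcripts of the methionine cycle were followed in bovine liver over 6 hours of sampling around an intra-mammary dose of lipopolysaccharide (LPS, from the outer membrane of Escherichia coli). The genes were MAT1A, MAT2A, MAT2B, GNMT, PEMT, AHCY, BHMT, CBS and CTH, and every probe set of the Affymetrix Bovine Genome Array annotated with 1 of these symbols alone was taken. This gave 9 of the 24128 probe sets, for 7 of the 9 genes and of 9155 genes named on the array. GNMT and BHMT each had 2 probe sets, of which the first is the one with the higher mean over the arrays. MAT2A and CTH had none that names a single gene and were not analysed here.

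The 36 arrays came from 8 Holstein-Friesian dairy cows, healthy and all in their first lactation and 9 to 12 weeks past calving. Each cow received 200 µg LPS in 10 ml of 0.9% NaCl in the right front gland of the udder at 0 h, and the same volume of NaCl alone in the left front gland. Biopsies at -22, 9 and 48 h came from all 8 cows, those at 3, 6 and 12 h from cows 1, 3, 7 and 8 alone, and each biopsy had its own array. Every animal on the arrays was treated, so the -22 h biopsies are the only baseline, and the effects of LPS and of time cannot be told apart. Per the labels, biopsies in cows given NaCl alone had no effect on a chosen set of genes, and those cows were not put on arrays. Values are log2 intensities per probe set, normalized with GCRMA by the authors. They ran from 0.69 to 16.37, with array medians of 4.15 to 4.38, and the number of cows limits the precision. A log2 change is the difference between an hour's mean and the -22 h mean, with its standard error (SE) from limma. A transcript was said to rise or fall when the Benjamini-Hochberg-adjusted p over all probe sets was below 0.05.

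In the methionine cycle, methionine adenosyltransferase joins methionine to the adenosyl group of ATP and so makes S-adenosylmethionine, the methyl donor of most methylation reactions. Methyltransferases pass the methyl group on and leave S-adenosylhomocysteine, which is split into adenosine and homocysteine. Homocysteine is either methylated back to methionine, with betaine or a folate as the donor, or drawn off towards cysteine by transsulfuration. The liver is the main organ of this cycle, and the adenosyltransferase subunit encoded by MAT1A is the form typical of adult liver.

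GNMT rose while most other genes of the cycle fell. Each gene is given here by its probe set with the highest mean. At 9 h the transcripts of MAT1A, BHMT, CBS, PEMT and AHCY were all lower than at -22 h in 8 of 8 cows. Those of GNMT and MAT2B were higher in 8 of 8. The fall was 27.5-fold for MAT1A and 17.4-fold for BHMT. The second BHMT probe set fell 5.09-fold and was lower in 6 of 8 cows. By 48 h none of the 7 genes was below baseline by the test, and GNMT and BHMT were above it; AHCY, lower in 8 of 8 cows, passed as lower with the cow as a replicate block (adjusted p = 0.0458).

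At 3 h, 1 of the 7 genes rose, against 3.5% of all probe sets that rose, and 0 fell, against 2.4%. At 6 h, 1 rose (background 23.3%) and 5 fell (22.0%), and at 9 h, 2 rose (32.0%) and 5 fell (22.6%). The split at 12 h was again 2 higher (22.2%) and 5 lower (18.9%). At 48 h, 2 genes were higher (17.9%) and 0 were lower (12.2%). The median log2 change of the 7 genes was -0.13, -0.79, -1.80, -1.86 and 0.05 at 3, 6, 9, 12 and 48 h, and over all probe sets it was -0.03, 0.03, 0.03, 0.01 and 0.03.

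**Figure D1:**
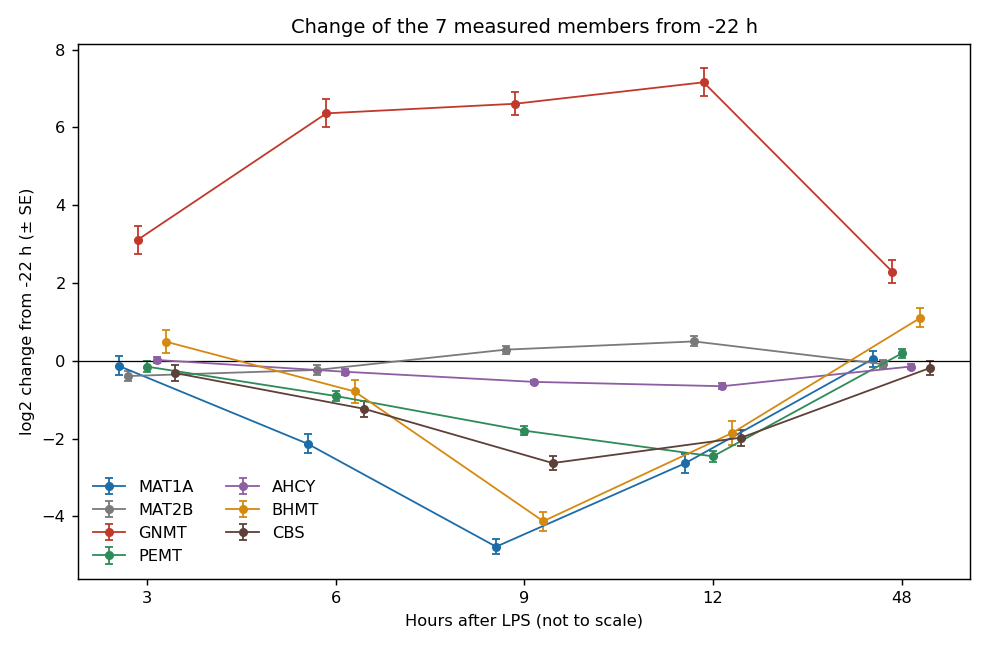
Log2 change of the 7 measured genes from -22 h (y axis, mean ± SE from limma) at each hour after LPS (x axis, not to scale), through the probe set of each gene with the highest mean. GNMT lies above 0 at every hour, MAT1A and BHMT are lowest at 9 h, and PEMT and AHCY are lowest at 12 h.

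MAT1A encodes the catalytic subunit of the liver's methionine adenosyltransferases. Its log2 value at -22 h was 12.75 in the lowest cow, 13.23 at the median and 13.47 in the highest, and at 9 h the corresponding values were 7.19, 8.53 and 9.15. The highest cow at 9 h thus lay far below the lowest cow at -22 h. The log2 change at 9 h was -4.78 (SE 0.20, n = 8, limma adjusted p = 2.297e-19), which took place 96 among the falls of all 24128 probe sets. Within single cows it ranged from -6.15 in cow 1 to -3.84.

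MAT1A had not moved by the test at 3 h, when cows 1, 3, 7 and 8 were at 12.93, 12.80, 13.26 and 13.19 and overlapped the baseline. At 6 h the same cows were at 10.66, 11.09, 11.38 and 11.04, a log2 change of -2.13 (SE 0.25, n = 4 against 8, limma adjusted p = 9.252e-09). At 12 h they were at 10.88, 10.27, 10.00 and 11.01, which is -2.64 (SE 0.25, limma adjusted p = 9.643e-11). The 6 and 12 h ranges overlapped each other and stood apart from both the baseline and the 9 h trough. At 48 h the lowest, median and highest cows were at 12.69, 13.29 and 13.51, over the same range as before LPS, and 4 of 8 cows were above their own baseline (log2 change 0.05, SE 0.20, limma adjusted p = 0.866).

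MAT2B, which encodes a regulatory subunit that associates with the MAT2A enzyme, went the other way and by far less. Its values at -22 h were 8.72, 9.39 and 9.74 (lowest, median, highest) and at 9 h 9.43, 9.57 and 9.96. The ranges overlapped, although every cow was higher at 9 h than at -22 h. The log2 change was 0.29 (SE 0.11, n = 8, limma adjusted p = 0.0242). It was 0.22 and past the threshold no longer (adjusted p = 0.0536) without cow 7, the lowest at -22 h, whose own change was 0.75.

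At 12 h MAT2B stood at 9.82, 9.90, 9.79 and 9.83 in cows 1, 3, 7 and 8, all above the highest baseline cow. This was its largest difference from baseline (log2 change 0.50, SE 0.13, n = 4 against 8, limma adjusted p = 0.0019). The earlier hours did not pass the test, with -0.39 at 3 h (adjusted p = 0.0708, lower in 4 of 4 cows; -0.54 and adjusted p = 0.0164 without cow 3) and -0.24 at 6 h (adjusted p = 0.129, lower in 3 of 4 cows, cow 7 being higher by 0.38). Against the baselines of the same 4 cows these were -0.25 and -0.10. At 48 h the cows were between 9.15 and 9.41, a narrower range than at -22 h, and the log2 change was -0.09 (SE 0.11, limma adjusted p = 0.551).

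**Figure D2:**
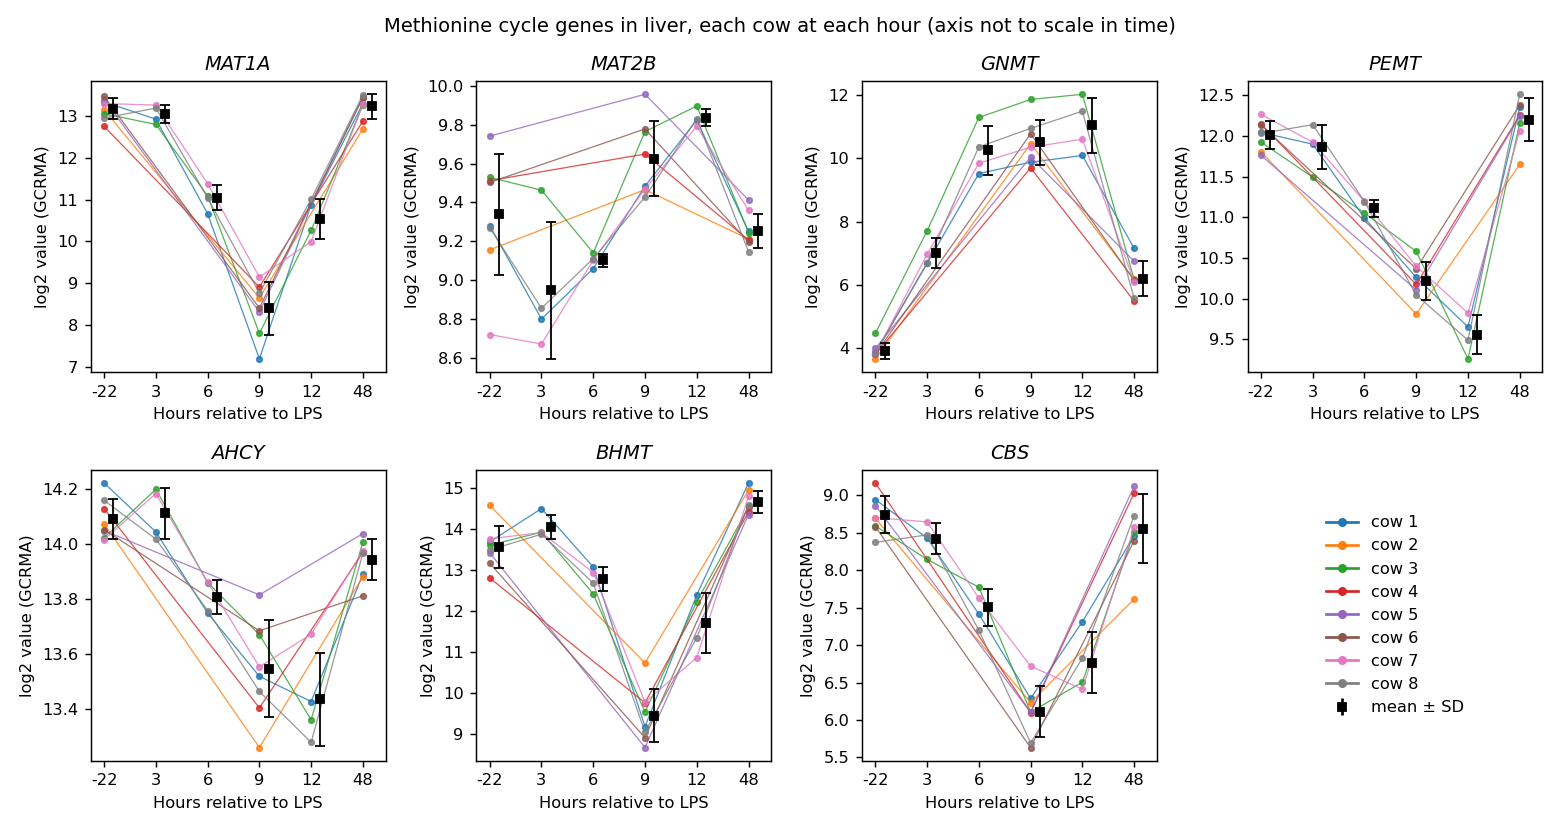
Log2 values (y axis, GCRMA) of the 7 genes at each hour (x axis, not to scale in time), with 1 coloured line per cow and black squares for the mean ± SD over the cows of that hour (n = 8 at -22, 9 and 48 h, n = 4 at 3, 6 and 12 h). All lines of MAT1A, BHMT, CBS and PEMT drop between -22 h and 9 h, and all lines of GNMT climb.

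GNMT encodes glycine N-methyltransferase, a cytosolic enzyme known in liver for using up surplus S-adenosylmethionine by methylating glycine. Its first probe set had -22 h values of 3.66, 3.81 and 4.46 (lowest, median, highest), near or below the array medians. At 3 h cows 1, 3, 7 and 8 had already reached 6.68, 7.71, 6.96 and 6.70, above every baseline value. The log2 change was 3.11 (SE 0.36, n = 4 against 8, limma adjusted p = 1.680e-07), and GNMT was the only gene of the cycle past the threshold at this hour. Because the baseline lies at the dim end of the scale, this and the later changes may be understated.

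At 6 h the GNMT values of the same cows were 9.52, 11.30, 9.85 and 10.37, a log2 change of 6.36 (SE 0.36, limma adjusted p = 1.860e-15). At 9 h they were 9.70, 10.41 and 11.87 (lowest, median, highest of 8), which is 6.61 (SE 0.29, limma adjusted p = 9.903e-19). At 12 h cows 1, 3, 7 and 8 stood at 10.09, 12.03, 10.61 and 11.50. The log2 change was 7.16 (SE 0.36, limma adjusted p = 6.593e-17), a 143-fold rise between the means, and was 6.23 or more within each of the 4 cows. It took place 10 among the increases of all probe sets at 12 h. The ranges at 6, 9 and 12 h overlapped between cows, while within cows 1, 3, 7 and 8 the value was higher at 9 h than at 6 h, by 0.36 to 0.59, and higher at 12 h than at 9 h, by 0.17 to 0.54. Neither step passed the threshold for successive hours.

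GNMT had not come back to baseline at 48 h. The lowest, median and highest cows were at 5.48, 6.15 and 7.15, each cow was above its own baseline by 1.69 to 3.28, and the ranges at -22 and 48 h did not overlap. The log2 change was 2.29 (SE 0.29, n = 8, limma adjusted p = 1.526e-06).

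The second GNMT probe set followed the first closely (r = 0.99 over the 36 arrays, which share cows and hours). Its log2 changes were 4.28, 7.59, 7.74, 8.12 and 2.35 at 3, 6, 9, 12 and 48 h, all past the threshold. Its range at 48 h, 3.53 to 6.49, overlapped its -22 h range of 2.23 to 3.74. The order of the cows was partly kept through the course: by the first probe set cow 3 had the highest GNMT value at 5 of the 6 hours, and cow 1 had the lowest at 3 of them and the highest at 48 h.

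PEMT encodes the methyltransferase that converts phosphatidylethanolamine to phosphatidylcholine, a large user of methyl groups in liver. Its values were 11.76, 12.04 and 12.27 at -22 h and 9.81, 10.22 and 10.58 at 9 h (lowest, median, highest), with no overlap. At 12 h cows 1, 3, 7 and 8 were lower still, at 9.65, 9.26, 9.82 and 9.49. Unlike MAT1A and BHMT, PEMT thus had its lowest mean at 12 h, and its value was lower at 12 h than at 9 h in 4 of 4 cows, with differences of -1.32 to -0.55 within cows. The step between the hourly means, -0.66, did not pass the threshold for successive hours (Bonferroni-adjusted p = 0.727).

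The log2 change of PEMT was -0.91 at 6 h (SE 0.14, limma adjusted p = 1.177e-06), -1.80 at 9 h (SE 0.11, limma adjusted p = 2.730e-15) and -2.46 at 12 h (SE 0.14, limma adjusted p = 5.677e-16), the last a fall of 5.49-fold. At 48 h PEMT was at 11.65, 12.25 and 12.51, a range that overlapped the baseline and reached past it at both ends, with a log2 change of 0.19 (SE 0.11, limma adjusted p = 0.182). GNMT and PEMT thus moved in opposite directions at 6, 9 and 12 h.

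AHCY encodes adenosylhomocysteinase, which splits S-adenosylhomocysteine. It fell by the smallest amount of the 5 falling genes. Its values at -22 h were 14.02, 14.06 and 14.22 (lowest, median, highest), those at 9 h 13.26, 13.54 and 13.82, and those at 12 h 13.43, 13.36, 13.67 and 13.28 in cows 1, 3, 7 and 8. Neither later range reached the baseline. The log2 change was -0.28 at 6 h (SE 0.07, limma adjusted p = 0.0014), -0.54 at 9 h (SE 0.06, limma adjusted p = 1.185e-09) and -0.65 at 12 h (SE 0.07, limma adjusted p = 3.063e-09), a 1.57-fold fall at most. At 48 h the cows were between 13.81 and 14.04, lower than their own baseline in 8 of 8. The log2 change of -0.15 (SE 0.06) missed the threshold (limma adjusted p = 0.0529), and passed it with the cow as a replicate block (adjusted p = 0.0458).

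BHMT encodes betaine-homocysteine methyltransferase, which returns homocysteine to methionine with the methyl group of betaine. The first probe set was at 12.81, 13.55 and 14.58 at -22 h and at 8.66, 9.35 and 10.73 at 9 h (lowest, median, highest). The 9 h cows lay wholly below the baseline cows. The log2 change was -4.12 (SE 0.25, n = 8, limma adjusted p = 1.190e-15).

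At 3 h BHMT was at 14.50, 13.93, 13.92 and 13.88 in cows 1, 3, 7 and 8, higher than at baseline in 4 of 4 but within the baseline range, and its log2 change of 0.49 did not pass the test (SE 0.30, adjusted p = 0.443). At 6 h it was at 13.07, 12.42, 12.94 and 12.68. The log2 change of -0.79 (SE 0.30, limma adjusted p = 0.0325) was the least stable call among the 5 falls at this hour: the adjusted p was 0.15, 0.0623 and 0.0927 when cows 3, 7 and 8 were left out in turn. At 12 h the values were 12.39, 12.23, 10.86 and 11.34, and the log2 change was -1.86 (SE 0.30, limma adjusted p = 4.077e-06).

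At 48 h BHMT had passed its baseline. The lowest, median and highest cows were at 14.36, 14.59 and 15.13. Every cow was higher than at -22 h, by 0.37 to 1.62, and the ranges overlapped because cow 2 was already at 14.58 before LPS. The log2 change was 1.10 (SE 0.25, n = 8, limma adjusted p = 0.0015), a 2.15-fold rise.

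The second BHMT probe set was below a log2 value of 5 on 18 of the 36 arrays and followed the first less closely (r = 0.70). It fell at 6 h (log2 change -2.56, SE 0.78, limma adjusted p = 0.0072) and at 9 h (-2.35, SE 0.63, limma adjusted p = 0.0022, lower in 6 of 8 cows), and it rose at 48 h (1.96, SE 0.63, limma adjusted p = 0.0251, higher in 8 of 8). At 6 and 9 h its values, from 2.66 to 3.13, were at the dim end of the scale, and those falls may be understated. Both probe sets of BHMT were therefore lower at 6 and 9 h and higher at 48 h. At 12 h the second gave -0.61 (SE 0.78, adjusted p = 0.622, lower in 4 of 4 cows), and its difference from the first was not tested.

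**Figure D3:**
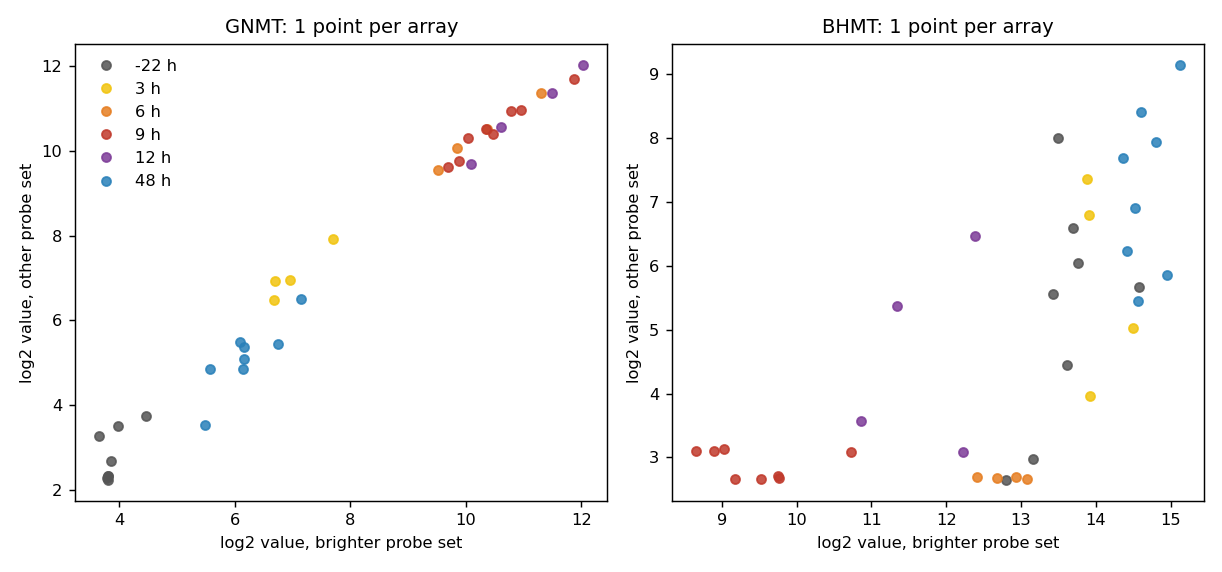
Log2 values of the second probe set (y axis) against the first probe set (x axis) of GNMT (left) and BHMT (right), 1 point per array and coloured by hour. The GNMT points lie along 1 line (r = 0.99), while the BHMT points at 6 and 9 h all lie near 3 on the y axis over a wide span of the x axis.

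CBS encodes cystathionine beta-synthase, which commits homocysteine to transsulfuration. Its values were 8.37, 8.70 and 9.16 at -22 h and 5.63, 6.10 and 6.72 at 9 h (lowest, median, highest), again without overlap. The fall at 9 h was 6.19-fold (log2 change -2.63, SE 0.17, n = 8, limma adjusted p = 7.869e-15). At 6 h cows 1, 3, 7 and 8 were at 7.41, 7.77, 7.63 and 7.20 (log2 change -1.23, SE 0.21, limma adjusted p = 7.652e-06), and at 12 h at 7.31, 6.50, 6.41 and 6.83 (log2 change -1.98, SE 0.21, limma adjusted p = 1.299e-09). The 12 h range overlapped both the 6 h and the 9 h range. At 48 h CBS was between 7.61 and 9.12 around a median of 8.54, lower than baseline in 6 of 8 cows (log2 change -0.19, SE 0.17, adjusted p = 0.405). The lowest value was from cow 2, which also had the lowest MAT1A and PEMT values at 48 h, and leaving out that array left the counts of changed genes at every hour as they were.

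Steps between successive hours were tested at a Bonferroni-adjusted p below 0.01. From -22 to 3 h, 1 gene of the cycle was differentially expressed (DE), GNMT, where 1.09% of all probe sets were. From 3 to 6 h there were 2, GNMT and MAT1A (8.16% of probe sets). From 6 to 9 h there were 4, all lower: BHMT by -3.34 (SE 0.30, Bonferroni-adjusted p = 5.948e-08), MAT1A by -2.65 (SE 0.25, adjusted p = 1.178e-07), CBS by -1.40 (SE 0.21, adjusted p = 0.0038) and PEMT by -0.89 (SE 0.14, adjusted p = 0.0059), against 4.84% of probe sets. By the first probe set, most of the fall of BHMT thus lay in this step of the course. That of MAT1A was spread over the steps to 6 h and to 9 h. The second BHMT probe set changed by -3.10 (SE 0.90) from 3 to 6 h and by 0.21 (SE 0.78) from 6 to 9 h, neither of them DE. Its values at 6 and 9 h were at the dim end of the scale, and the 2 probe sets differ on when BHMT fell. The count of 2 from 3 to 6 h became 0 without cow 7 or cow 8 and 1 without cow 3, and the count of 4 from 6 to 9 h became 2 (BHMT and MAT1A) without cow 1, 3, 6, 7 or 8, and 3, without CBS, with the cow as a replicate block.

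From 9 to 12 h, 2 genes were DE and both rose, where 2.79% of probe sets were DE. MAT1A increased by 2.14 (SE 0.25, Bonferroni-adjusted p = 1.787e-05), by 0.85 to 3.69 within the 4 cows, and BHMT by 2.26 (SE 0.30, adjusted p = 4.145e-04), by 1.09 to 3.22. The count was 1, MAT1A alone, without cow 1, 3 or 8. The remaining fallers did not follow by this test: CBS changed by 0.65 (higher in 3 of 4 cows), AHCY by -0.11 (lower in 3 of 4) and PEMT by -0.66. From 12 to 48 h, 6 of the 7 genes were DE, against 16.1% of probe sets. GNMT fell by 4.87 on the log2 scale, and BHMT, MAT1A, PEMT, CBS and AHCY rose by 2.97, 2.69, 2.64, 1.79 and 0.51. MAT2B, with -0.58, was the exception.

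The changes were also compared between the 4 cows with 6 biopsies and the 4 with 3. For none of the 7 genes did the change from -22 h differ between these sets of cows at 9 h (0.00414% of all probe sets did) or at 48 h (0.0%) by limma, and 0 of the 7 had an unadjusted p under 0.05. The smallest unadjusted p was 0.314 at 9 h, for CBS, which changed by -2.45 in the cows with 6 biopsies and by -2.81 in the others. MAT1A changed by -4.93 and -4.62 at 9 h, a difference of -0.31 (SE 0.41), and GNMT by 6.78 and 6.44, a difference of 0.34 (SE 0.60), so differences of the size of these errors would not have been seen. The second BHMT probe set gave -3.48 and -1.22 at 9 h (unadjusted p = 0.0522, adjusted p = 0.957).

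Median centring of the arrays, over probe sets whose mean log2 value was 5 or higher, showed a shift of these medians by -0.13 between -22 and 48 h and moved the share of higher among all called probe sets from 59.5% to 84.6%. With this centring GNMT and BHMT were still higher at 48 h, and PEMT was also called higher (log2 change 0.32, adjusted p = 0.024).

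The genes whose values were most like those of MAT1A over the 36 arrays were SLC25A4, the mitochondrial ADP/ATP carrier (Pearson r = 0.980), FGFRL1, a receptor-like protein of the fibroblast growth factor receptor family (0.973), and ADH5, a glutathione-dependent formaldehyde dehydrogenase (0.972). Those most like BHMT were AMACR, the racemase of branched fatty acyl-CoA (0.957), UPP2, a uridine phosphorylase (0.945), and SLC6A11, a GABA transporter (0.943). Those most like GNMT were VMP1, a membrane protein of autophagy (0.962), GPX1, a glutathione peroxidase (0.956), and PDXK, pyridoxal kinase, which makes the cofactor form of vitamin B6 (0.954). The mean of SLC25A4 went from 12.62 at -22 h to 9.81 at 9 h and back to 12.58 at 48 h, and that of PDXK from 3.37 to 8.85 and 4.19. The arrays share cows and hours, so these values describe a common time course and carry no test.

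Within an hour the genes of the cycle did not track each other as they did over the course. MAT1A and BHMT correlated at 0.94 over the 36 arrays and at 0.20 after the mean of each hour was taken away, and MAT1A and CBS at 0.95 and 0.29. The within-hour value largest in size was that of AHCY and BHMT, at -0.56, against 0.68 over the arrays. These are descriptions over arrays that share cows.

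Around the cycle, 61 partner genes of folate, choline, sulfur amino acid and polyamine metabolism were listed, of which 49 had a value. At 9 h, 11 of the 49 rose and 32 fell, where 32.0% of all probe sets rose and 22.6% fell, and the median log2 change was -0.97 against 0.03 over all probe sets. At 6 h, 9 rose (background 23.3%) and 33 fell (22.0%), and at 12 h 10 rose (22.2%) and 29 fell (18.9%). At 48 h, 5 rose (17.9%) and 14 fell (12.2%), and at 3 h 1 rose (3.5%) and 1 fell (2.4%).

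Genes next to BHMT and AHCY came out as follows. MTR encodes methionine synthase, the folate-dependent route from homocysteine to methionine. In contrast to BHMT it rose at 6, 9 and 12 h. The rise was 0.56 at 6 h (SE 0.21, limma adjusted p = 0.0271), 0.64 at 9 h (SE 0.17, limma adjusted p = 0.0017, higher in 8 of 8 cows) and 1.30 at 12 h (SE 0.21, limma adjusted p = 3.311e-06, higher in 4 of 4). At 48 h both genes were higher, MTR by 0.51 (SE 0.17, limma adjusted p = 0.0279, higher in 7 of 8 cows). MTR had a mean of 4.99 at -22 h, and its range at 9 h overlapped the baseline. Its reactivating enzyme MTRR had a log2 value of 2.61 at -22 h, at the dim end of the scale, and 2.63 at 9 h (adjusted p = 0.249). ADK, adenosine kinase, which clears the adenosine that AHCY releases, fell by 1.80 at 9 h (SE 0.08, limma adjusted p = 1.091e-18) and had a log2 change of -2.92 at 12 h (SE 0.10, limma adjusted p = 7.810e-21). AHCYL1, a relative of AHCY, fell by 1.04 at 9 h (SE 0.11, limma adjusted p = 5.466e-10). BHMT2, CHDH, NNMT and PCYT1A were listed too and were not analysed here.

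GAMT, guanidinoacetate methyltransferase, which makes creatine with a methyl group from the cycle, had log2 changes of -0.97 at 9 h (SE 0.07, limma adjusted p = 1.785e-13) and -1.40 at 12 h (SE 0.09, limma adjusted p = 7.803e-15). GATM, which makes its substrate, passed the test at no hour (log2 change -0.25 at 9 h, SE 0.14, adjusted p = 0.113). The identifier of the GATM probe set shares its stem with that of AHSG, a hepatocyte marker, and which gene it reads was not tested. SHMT1, a hydroxymethyltransferase that loads folate from serine, changed by -1.70 at 9 h (SE 0.08, limma adjusted p = 6.612e-18). In the branches that use cysteine, CDO1, cysteine dioxygenase, rose by 0.36 at 9 h (SE 0.10, limma adjusted p = 0.0019, higher in 7 of 8 cows), and GCLC, the catalytic subunit of the first enzyme of glutathione synthesis, changed by -0.56 without passing the test (SE 0.47, adjusted p = 0.298). The other subunit of that enzyme, GCLM, and glutathione synthetase, GSS, fell at 9 h in 8 of 8 cows, with log2 changes of -2.29 (SE 0.16, limma adjusted p = 3.130e-14) and -1.12 (SE 0.20, limma adjusted p = 1.114e-05). AMD1, the decarboxylase that turns S-adenosylmethionine to polyamine synthesis, rose by 0.63 at 9 h (SE 0.14, limma adjusted p = 2.544e-04) and was lower than baseline at 48 h, by -0.76 (SE 0.14, limma adjusted p = 1.863e-04). SMS, spermine synthase, fell at 9 h in 8 of 8 cows, with a log2 change of -1.47 (SE 0.14, limma adjusted p = 1.797e-10).

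The largest rises among the partners at 9 h were those of SRM, spermidine synthase (log2 change 4.22, SE 0.26), MTHFD1L and MTHFD2, both mitochondrial folate enzymes (3.62, SE 0.28, and 2.40, SE 0.20), and ODC1, ornithine decarboxylase, at the head of polyamine synthesis (2.10, SE 0.22). SRM and MTHFD2 were at 3.25 and 2.37 at -22 h, at the dim end of the scale, so their rises may be understated. The largest falls were those of AMT, the aminomethyltransferase of the glycine cleavage system (-4.05, SE 0.24), SUOX, sulfite oxidase (-3.47, SE 0.22), PIPOX, a peroxisomal oxidase of sarcosine and pipecolate (-3.11, SE 0.36), and TST, a sulfurtransferase (-2.74, SE 0.21). All 8 moved the same way in 8 of 8 cows, and their limma adjusted p lay between 1.058e-15 and 4.816e-09. AMT had a log2 value of 3.01 at 9 h, and its fall may be understated for the same reason.

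**Figure D4:**
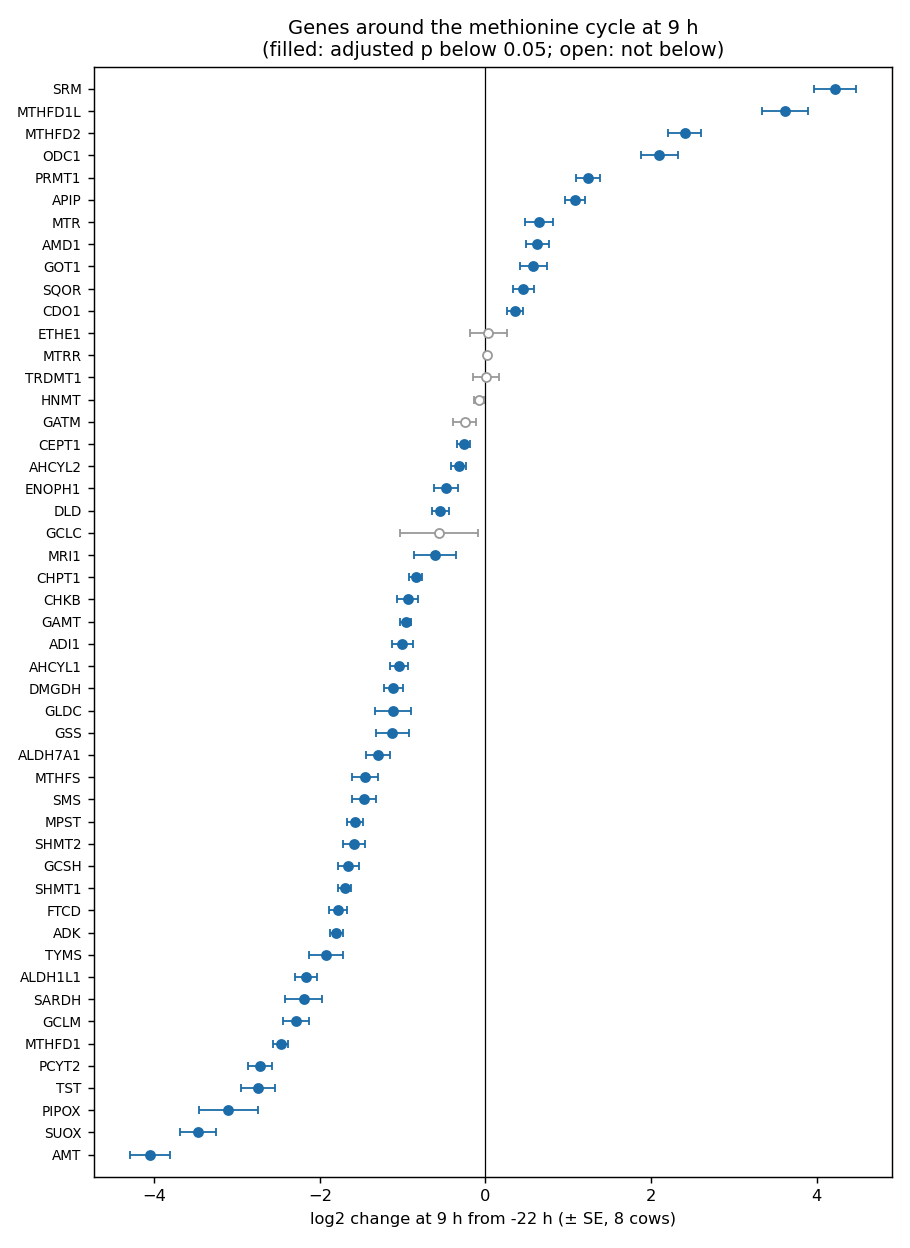
Log2 change at 9 h from -22 h (x axis, ± SE from limma, 8 cows) of the 49 measured partner genes of the cycle (y axis, in order of change). Filled points have an adjusted p below 0.05 (11 to the right of 0 and 32 to the left) and open points do not.

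A liver biopsy holds several cell types, and in such bulk samples fewer cells of a type and less RNA per cell cannot be told apart. ALB, albumin, had a log2 value of 16.14 at -22 h and 16.09 at 9 h, near the highest value of the table, where a change can be hidden. Most hepatocyte markers further from that end fell at 9 h. Among them were HNF4A, a hepatocyte transcription factor (log2 change -2.40), ASGR2, a subunit of the asialoglycoprotein receptor (-1.63), and APOB, an apolipoprotein (-1.26). TF and TTR, at 15.58 and 15.38 at -22 h, fell by less (log2 changes -0.20 and -0.44). F2, at 15.05 at -22 h, did not pass the test (log2 change -0.03, SE 0.03, limma adjusted p = 0.413, higher in 3 of 8 cows). Of 15 hepatocyte markers, 0 rose and 13 fell at 9 h, where 32.0% of all probe sets rose and 22.6% fell, with a median log2 change of -0.41, and the log2 of their summed intensities ran from 18.39 to 18.68 at -22 h and from 18.22 to 18.36 at 9 h. By the log2 of summed intensities, neutrophil genes moved most among the other cell types. Of 10 measured, 5 rose and 1 fell at 9 h (background 32.0% and 22.6%), with a median log2 change of 0.46. The rises were led by S100A9 (log2 change 6.43), S100A8 (6.19) and S100A12 (5.89). The log2 sum of the 10 genes went from 8.20 to 9.00 at -22 h to 12.46 to 15.02 at 9 h and 9.84 to 11.99 at 48 h. The granule genes ELANE and MPO, also on the list, stayed at the dim end of the scale, at 2.14 and 2.54 at 9 h. Of 10 macrophage genes 1 rose and 5 fell at 9 h (background 32.0% and 22.6%), with a median log2 change of -0.44. Their log2 sum was 14.44 to 15.11 at -22 h and 13.90 to 14.64 at 9 h. Of 12 genes of T and NK cells 0 rose and 3 fell (log2 sum 7.56 to 8.70 and 7.33 to 8.57). The share of these that fell was near the 22.6% of all probe sets, while 32.0% of all probe sets rose. The part of these shifts in the changes of the methionine cycle genes was not tested.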

How the data were processed

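RNA from 36 liver biopsies was hybridised to the Affymetrix Bovine Genome Array. The authors made the deposited log2 values with GCRMA (background correction from probe sequence, quantile normalization, 1 value per probe set and array). Quantile normalization makes the distributions of the arrays alike, so a shift common to most transcripts may not be visible, and dim values can understate folds. The array medians of the deposited values still ran from 4.15 to 4.38. These values were used as deposited, and raw array files were not used here. Samples were grouped by hour and cow from the labels.

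A linear model with a mean for each hour was fitted to the 24128 probe sets in limma (version 3.58.1, R 4.3.3), with variances moderated by empirical Bayes. Each hour was compared with -22 h (Benjamini-Hochberg, threshold 0.05) and successive hours with each other (Bonferroni, threshold 0.01), with p-values adjusted over the 24128 probe sets of each comparison. A second fit had 1 mean per hour and set of cows. Genes were named from the platform's annotation table, in which 13318 probe sets name 1 gene, 86 several and 10724 are not listed. Where a gene had several, the one with the highest mean led.

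Named genes were all members, the 3 genes most correlated with MAT1A, GNMT and BHMT, 14 partners fixed by name where measured, and the 4 largest rises and falls among the partners at 9 h with the same direction in all 8 cows. GATM, GCLM, GSS, SMS, ALB, AHSG, HNF4A, ASGR2, APOB, TF, TTR, F2, ELANE, MPO and the S100A genes were named after their values were seen. Members, partners and marker lists (hepatocyte, macrophage, neutrophil, T and NK cell) were chosen with earlier results of these data known. The cow number in the labels pairs the arrays of a cow: deviations from the hourly means at -22 and 48 h had a mean correlation of 0.316 for arrays of 1 cow (from 0.116 to 0.505) against -0.04 for arrays of different cows. A planned test of MAT2A against MAT1A was not run, since no probe set was annotated with MAT2A alone.

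The fit was tested before use on simulated data with independent arrays, so it was not tested on arrays that share a cow. Planted log2 changes of 0.5 were found in 20% (3 h) to 48% (9 h) of cases, and those of 3 in 100%. Alternatives were the cow as a fixed or random replicate block, each cow or 1 array left out, array weights, centring on bright probe sets, a fit to the 4 cows with 6 biopsies, another variance prior, filters on dim and on control probe sets, other adjustments, and averaging over the probe sets of GNMT and BHMT. Figures were drawn with matplotlib 3.10.9 in Python 3.11.15.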

Additional observations from a re-analysis of the deposited data

Results flagged for a closer look

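In 2 of 54 groups of 4 or 8 arrays, 1 cow stood apart from the others by Dixon's ratio (gap to the nearest value over the whole range). Chance alone gives about 1 in 20, or 2.7 of 54. For the first BHMT probe set at 3 h, cow 1 was the highest at 14.50 and the next cow was at 13.93, a ratio of 0.922, above the 95% critical value for 4 samples. For the first GNMT probe set at -22 h, cow 3 was the highest at 4.46 with the next at 3.99, a ratio of 0.590, above that for 8 samples. Cow 3 also had the highest GNMT value at 3, 6, 9 and 12 h.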

How the results depend on the processing

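Of the 22 alternative settings, those that compared each hour with -22 h gave 700 values of single genes. Of these values, 670 kept their direction and their side of the threshold, 13 passed it newly, 11 no longer passed it and 6 changed sign. The counts of changed genes at 6, 9 and 12 h stayed within 1.5 times their value in all settings. With the cow as a replicate block in the paired fit, 1, 6, 7, 7 and 3 genes passed at 3, 6, 9, 12 and 48 h, and the only calls that changed were AHCY at 48 h (adjusted p = 0.0458) and CBS from 6 to 9 h, where 3 genes in place of 4 were DE. At 3 h the count of 1 became 2, with MAT2B, under centring on bright probe sets, array weights or without cow 3 (1 to 2 over the cows left out). At 48 h the count of 2 became 5 with array weights and 1 with Bonferroni adjustment. With the 4 cows that had 6 biopsies alone, the DE counts were 0 from -22 to 3 h, 0 from 3 to 6 h, 2 from 6 to 9 h and 1 from 9 to 12 h. Benjamini-Hochberg below 0.01 gave 6 genes from 3 to 6 h, and Bonferroni over the 5 comparisons together gave 2 from 6 to 9 h. Leaving out each cow gave 0 to 2 from 3 to 6 h, 2 to 4 from 6 to 9 h and 1 to 2 from 9 to 12 h. The fewer arrays lower the power of these fits, and for the other settings the cause was not tested. The changes of sign were all in values that did not pass the threshold: AHCY at 3 h was -0.0098 with centring and -0.0182 to 0.0619 over the cows left out, MAT1A at 48 h was -0.0206 to 0.1246 over the cows left out, and MAT2B at 48 h was 0.0504 with the 4 cows and 0.0465 with centring. MAT2B at 9 h no longer passed with the 4 cows (adjusted p = 0.0776), array weights (0.0551) or Bonferroni adjustment. The alternatives of the MAT2A test were not run. Values below about 5 limit what a fall of the second BHMT probe set or a rise of GNMT can show.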
